A study of Danio rerio with 4 samples.

Results

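Kinesins are motor proteins that walk along microtubules. One branch builds the mitotic spindle, moves chromosomes and completes cytokinesis, and another carries vesicles, organelles and ciliary cargo in cells that need not divide. At mitosis the spindle attaches to kinetochores, which assemble on centromeric chromatin marked by the histone variant CENP-A. In dividing cells most transcripts of this machinery accumulate towards G2 and mitosis, and blood progenitors are among the dividing cells of the larva.

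The set comprised 74 of the 30838 rows of the deposited table. Of these, 44 had a kinesin symbol, 14 a centromere protein symbol, and 16 were listed genes of the spindle, kinetochore and cytokinesis. The kinesin rows were separated into 12 mitotic kinesins, 31 other kinesins (transport, ciliary and unclassified), and kif1bp, a kinesin-binding protein that is not a motor. The centromere group holds cenpe, which is itself a mitotic kinesin in vertebrates, and cenpj, a centriole gene. The kinesin symbols kif18b and kif24 were not analysed here.

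Expression had been measured in AB-strain zebrafish larvae, without further treatment, at 4 days post fertilization. Cells with low cd41:eGFP fluorescence, a reporter gate for hematopoietic stem and progenitor cells (HSPCs), were sorted, and about 500 cells entered each amplified library. The 2 groups were siblings (2 libraries) and Smu07 mutants (2 libraries), and the series title names the phosphate transporter gene slc20a1b. The labels give neither the sibling genotypes nor the number of larvae, and do not say that the libraries came from separate clutches, so the p-values reflect no more than the spread among these libraries, which may be technical.

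Values are in TPM, a transcript level that is corrected for gene length and brought to 1 fixed total per library. The slc20a1b transcript stood at 39.3 and 42.4 TPM in siblings and 49.3 and 53.8 TPM in mutants, and the lesion is not given, so it does not check the labels. Whole reads recovered from the values came to at least 24480164 and 25955968 in siblings and 27570271 and 29253615 in mutants. Rows above 0 numbered 19528 and 19811 in siblings and 23881 and 23978 in mutants. The gate's own transcript, itga2b, fell from 50.8 and 66.9 to 23.5 and 19.3 TPM. Of the 8 HSPC markers, none was at 0. In the fit described below 4 fell and 1 (runx1) rose, beside 18.6% and 9.91% of all genes tested. Among those that fell, gfi1aa was tested only through its sibling mean. Several genes that such cells normally use were listed at or near 0, among them the mitotic kinase gene plk1 (0.0115 to 0.0361 TPM in the 4 libraries), so a value near 0 is given only as listed.

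The summed level of the 74 members was 1243 and 1162 TPM in the sibling libraries and 704 and 807 TPM in the mutant libraries. Both mutant sums lay below both sibling sums. Among the 46 members with a mean of at least 1 TPM, which were tested, 23 fell and 0 rose in mutants (limma on log2(TPM + 1), Benjamini-Hochberg adjusted p under 0.05 over 12073 genes). Over all genes tested, 18.6% fell and 9.91% rose. At an unadjusted p under 0.05 the members numbered 28 lower and 1 higher, and limma's voom on the recovered reads called 22 lower and 0 higher. The same counts over all genes were 3417 lower and 1821 higher at that p, and 1993 and 1507 with voom. The median log2 difference of the tested members was -0.54, against -0.14 over all genes tested. The groups did not overlap for 31 tested members lower and 5 higher in mutants, against 44% and 26% of all genes tested.

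The member calls needed both mutant libraries in the fit, as did nearly all calls in the series. For every called member both mutant values lay below both sibling values, so leaving out a library could not change its sign. A fit with 1 library left out takes the spread from the other group's pair and assumes that the lone library varies likewise. Without mutant replicate 1 or without mutant replicate 2, no member kept its call. Over all genes, the same fits called only 4 and 3 genes lower and 0 higher. Lower calls made up 65.3% of all calls, but 54.2% under median-of-ratios scaling, 51.1% under quantile normalization and 56.9% with voom. The members stood at 20, 13 and 22 lower and 0 higher in these 3 fits. Over all genes, the same 3 fits called 1656, 1390 and 1993 lower and 1397, 1329 and 1507 higher. The fit above called 2247 genes lower and 1196 higher. With no filter on low values, 11 members were called lower and 3 higher, against 4.31% and 5.06% of all genes in that fit. There 12 of the 23 lower members lost their call (kif2c, kifc1, birc5a, cdca8, prc1a, prc1b, racgap1, cenpa, cenpe, cenpf, cenpk and cenpw).

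Markers of other cell types differed in the same libraries. Beside the counts below, 18.6% of all genes tested fell and 9.91% rose. Of 6 tested macrophage markers 5 rose, and the summed level of 9 markers was 396 and 387 TPM in siblings and 989 and 940 TPM in mutants, with c1qa listed at 0 throughout and mpeg1.1 at or below 0.05 TPM. Of 6 tested erythroid markers 4 fell, and the sum of 8 was 984 and 493 TPM in siblings and 141 and 224 TPM in mutants, with gata1a and alas2 at or near 0. The largest part of the erythroid sum was hbbe1.1, at 768 and 231 TPM in siblings and 76.9 and 128 TPM in mutants. Of 8 thrombocyte markers 5 fell and 1 rose, with sums of 423 and 457 TPM in siblings and 326 and 302 TPM in mutants. Those that fell included itga2b, the gate's own transcript, already given above. All 7 tested keratinocyte markers rose, of which 5 (krt4, cyt1, cyt1l, krt91 and krt17) reached the filter only through their mutant mean. The sums over 10 markers were 44.5 and 34.9 TPM in siblings and 274 and 177 TPM in mutants, with epcam at 0. Of 5 tested neutrophil markers 2 rose and 3 did not pass, with sums over 6 markers of 438 and 241 TPM in siblings and 769 and 938 TPM in mutants, while lyz stayed below 1 TPM. Of 4 tested lymphoid markers 3 fell (zap70 tested only through its sibling mean), with sums over 8 markers of 846 and 693 TPM in siblings and 894 and 864 TPM in mutants, and lck at 0. Most of the lymphoid sum was ccr9a, which did not pass, at 731 and 569 against 810 and 777 TPM. Of 4 tested muscle markers 1 rose (tpma, tested only through its mutant mean), with sums over 7 markers between 5.82 and 10.4 TPM and ckma at 0. The part of these markers in the members' differences was not tested. In bulk libraries, fewer dividing cells and less transcript per cell cannot be told apart.

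**Figure D1:**
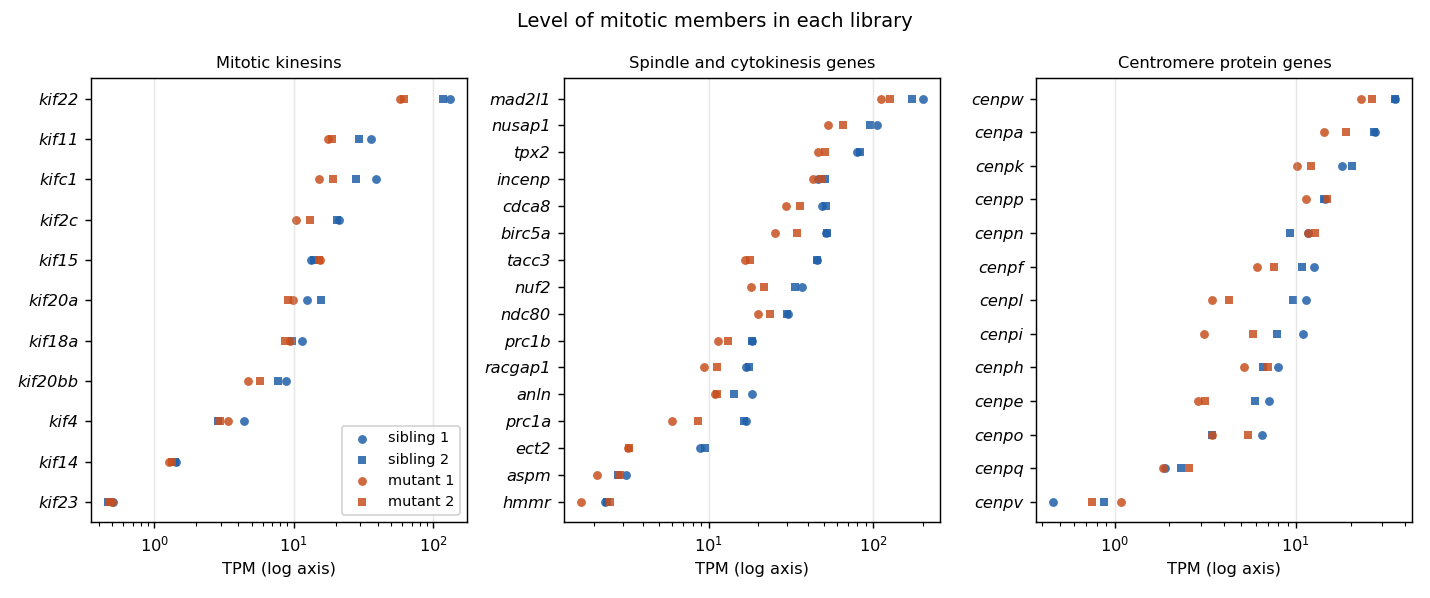
Level of the mitotic kinesins, the spindle and cytokinesis genes and the centromere protein genes in each library, in TPM on log axes, with siblings in blue, mutants in orange, and the marker shape giving the replicate. Rows at 0 in all libraries are not drawn; for kif22 the mutant libraries (57.5 and 61.5 TPM) sit below the siblings (132 and 117 TPM), whereas those of incenp overlap.

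Of the 12 mitotic kinesins 10 were tested. Of these, 4 fell (kif22, kif11, kifc1 and kif2c, 40% beside 18.6% of all genes tested), 0 rose and 6 did not pass. At an unadjusted p under 0.05 the counts were 6 and 0, and voom called 5 and 0. Their median log2 difference was -0.54, and their summed level went from 263 ± 24.2 to 150.3 ± 7.49 TPM (SD, n = 2 per group). The most abundant was kif22, a chromokinesin that pushes chromosome arms along the spindle, at 132 and 117 TPM in siblings and 57.5 and 61.5 TPM in mutants. Both mutant values lay far below both sibling values, and the mean fell by 52.2%, a log2 difference of -1.05 (SE 0.11, limma adjusted p = 0.00544).

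The plus-end motor kif11, known in vertebrates as Eg5, slides antiparallel microtubules apart to make the spindle bipolar. It read 35.9 and 29.1 TPM in siblings and 17.7 and 18.9 TPM in mutants. The groups did not overlap, and the log2 difference was -0.79 (SE 0.15, limma adjusted p = 0.0160). The minus-end motor kifc1 focuses spindle poles and works against kif11. It fell from 38.6 and 27.8 TPM to 15.0 and 19.0 TPM, by 0.92 on the log2 scale (SE 0.20, limma adjusted p = 0.0233), with siblings further apart than mutants, and did not pass under quantile normalization. The depolymerase gene kif2c, whose product corrects faulty kinetochore attachments, fell from 21.1 and 20.3 TPM to 10.3 and 13 TPM, by 0.78 on the log2 scale (SE 0.16, limma adjusted p = 0.0192).

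The remaining mitotic kinesins did not pass. The gene kif20a, whose product brings the chromosomal passenger complex to the central spindle, read 12.4 and 15.7 TPM in siblings and 9.86 and 9.13 TPM in mutants (log2 difference -0.51, SE 0.17, limma adjusted p = 0.0727). The cytokinesis kinesin gene kif20bb read 8.74 and 7.75 against 4.69 and 5.69 TPM (limma adjusted p = 0.0594), and it passed with voom and without sibling replicate 2. Neither pair of groups overlapped. The kinetochore-microtubule length regulator kif18a stood at 11.5 and 9.69 against 9.32 and 8.60 TPM, with a 95% interval of the log2 difference from -0.62 to 0.19. The chromokinesin gene kif4, at 4.39 and 2.85 against 3.37 and 2.95 TPM, had overlapping groups. The cytokinesis kinesin gene kif14 lay close to the 1 TPM filter, at 1.44 and 1.40 against 1.27 and 1.33 TPM.

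A motor that can share the bipolar-spindle role of kif11 in human cells, kif15, did not pass. It read 13.3 and 14.0 TPM in siblings and 15.4 and 15.2 TPM in mutants, so the mutant values were slightly higher with no overlap. Its log2 difference was 0.15 (95% interval -0.18 to 0.49, limma adjusted p = 0.429). The ratio of kif15 to kif11 was 0.371 and 0.480 in siblings and 0.871 and 0.804 in mutants, which mostly restates the fall of kif11. This and the other ratios given here were chosen after their values were seen, and an exact permutation test of 2 libraries against 2 cannot give a two-sided p below 0.333.

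The centralspindlin motor gene kif23 was listed at 0.506 and 0.467 TPM in siblings and 0.493 and 0.480 TPM in mutants, from 58 to 71 recovered reads per library, and was not tested. Its partner in centralspindlin, racgap1, which acts at the division plane, stood much higher per length, at 16.9 and 17.6 TPM in siblings and 9.34 and 11.2 TPM in mutants. The ratio of kif23 to racgap1 was 0.0300 and 0.0266 in siblings and 0.0528 and 0.0430 in mutants. The mean of kif23 was 0.486 TPM in both groups, so this ratio restates the fall of racgap1. Like plk1, kif23 is given only as listed. The row kif20ba, a paralog of kif20bb, was listed at 0 in all 4 libraries.

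All 16 spindle and cytokinesis genes were tested, 11 fell (68.8%, beside 18.6% of all genes tested), 0 rose and 5 did not pass. At an unadjusted p under 0.05 the counts were 13 and 0, and voom called 9 and 0. Their median log2 difference was -0.67, and their summed level went from 714 ± 21.6 to 443 ± 48.7 TPM (SD, n = 2 per group). Levels in siblings ran from 201 and 174 TPM for mad2l1 down to 2.35 and 2.42 TPM for hmmr.

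Among microtubule organizers, tpx2 encodes an activator of Aurora A that promotes microtubule assembly near chromosomes. It fell from 79.6 and 83.8 TPM to 45.9 and 51.1 TPM, by 0.74 on the log2 scale (SE 0.11, limma adjusted p = 0.00964). The spindle stabilizer tacc3, a clathrin and ckap5 partner in vertebrate cells, read 45.6 and 45.9 TPM in siblings and 16.6 and 17.9 TPM in mutants, a log2 difference of -1.36. The ratio of tacc3 to tpx2 was 0.573 and 0.547 in siblings and 0.361 and 0.350 in mutants, with no overlap. The microtubule-bundling gene nusap1 fell from 105 and 96.0 TPM to 53.4 and 65.6 TPM, by 0.75 on the log2 scale (SE 0.13, limma adjusted p = 0.0136). In contrast, the pole protein gene aspm read 3.15 and 2.80 against 2.09 and 2.90 TPM and the hyaluronan receptor gene hmmr, which also acts at spindle poles, 2.35 and 2.42 against 1.67 and 2.52 TPM. Both had overlapping groups and did not pass.

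At the kinetochore, nuf2 and ndc80 encode partners in the complex that holds microtubule ends. The nuf2 transcript fell from 36.8 and 33.6 TPM to 18 and 21.6 TPM, by 0.80 on the log2 scale (SE 0.15, limma adjusted p = 0.0142). The ndc80 transcript read 30.2 and 29.8 TPM in siblings and 19.9 and 23.5 TPM in mutants, without overlap, and missed the threshold (log2 difference -0.45, SE 0.14, limma adjusted p = 0.0544). With a filter of 5 TPM, ndc80 passed. The ratio of nuf2 to ndc80 was 1.22 and 1.13 in siblings and 0.904 and 0.921 in mutants. The spindle checkpoint gene mad2l1, which delays anaphase until chromosomes are attached, fell from 201 and 174 TPM to 112 and 126 TPM, by 0.65 on the log2 scale (SE 0.12, limma adjusted p = 0.0139).

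The chromosomal passenger complex joins a scaffold (incenp), a pair of targeting subunits (birc5a for survivin, cdca8 for borealin) and Aurora B. The scaffold read 46.2 and 50.9 TPM in siblings and 43.4 and 48.7 TPM in mutants, so its groups overlapped. Its log2 difference was -0.08 (95% interval -0.38 to 0.23, limma adjusted p = 0.670), turning to 0.023 under median-of-ratios scaling, 0.16 under quantile normalization and 0.0012 with voom. The birc5a transcript fell from 51.6 and 52.2 TPM to 25.4 and 34.6 TPM, by 0.79 on the log2 scale (SE 0.17, limma adjusted p = 0.0209), and did not pass under quantile normalization. The cdca8 transcript fell from 48.8 and 52.0 TPM to 29.4 and 35.7 TPM, by 0.62 (SE 0.14, limma adjusted p = 0.0234), and did not pass under quantile normalization or with no trend. Aurora B itself, aurkb, fell from 183 and 181 TPM to 118 and 106 TPM. In the siblings the incenp to birc5a ratio was 0.894 and 0.975, and in mutants 1.71 and 1.41, with no overlap between the groups. As incenp differed little, this ratio mostly restates the fall of birc5a.

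Among cytokinesis genes of the division plane, ect2, encoding an exchange factor needed for the cleavage furrow, fell from 8.85 and 9.50 TPM to 3.23 and 3.25 TPM, by 1.26 on the log2 scale (SE 0.17, limma adjusted p = 0.00813). Both mutant libraries held near-equal values. The paralogs prc1a and prc1b encode the bundler of the central spindle. They read 16.8 and 16.3 against 6.01 and 8.62 TPM, and 18.4 and 18.2 against 11.4 and 13.1 TPM. Both fell, prc1a by 1.1 (limma adjusted p = 0.0139) and prc1b by 0.55 (limma adjusted p = 0.0387) on the log2 scale, and the call for prc1b was also lost under median-of-ratios scaling, under quantile normalization, with no trend and with voom. Their ratio, prc1a over prc1b, was 0.913 and 0.894 in siblings and 0.527 and 0.657 in mutants. The centralspindlin gene racgap1 fell by 0.70 (SE 0.16, limma adjusted p = 0.0239), not passing under quantile normalization or voom. The actin-binding ring scaffold gene anln read 18.3 and 14.2 against 10.9 and 11.3 TPM and did not pass (limma adjusted p = 0.0733).

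**Figure D2:**
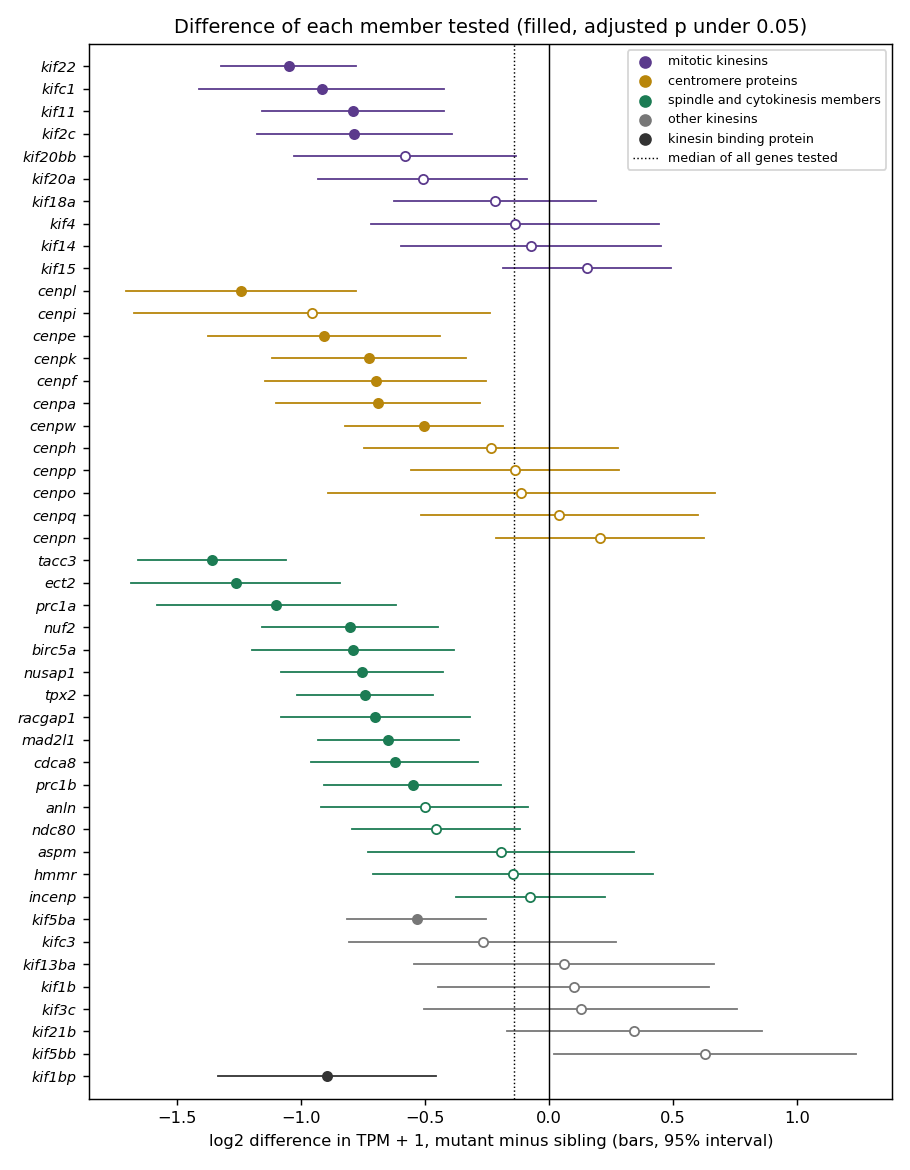
Log2 difference in TPM + 1 (mutant minus sibling) of each of the 46 members tested, with bars for the 95% interval, filled points for an adjusted p under 0.05 and colours for the class. The dotted line marks the median of all genes tested (-0.14); no filled point lies to the right of 0, and the intervals of incenp and kif15 span 0.

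Among the centromere protein genes, 12 of 14 were tested. Of these, 6 fell (50%, beside 18.6% of all genes tested), 0 rose and 6 did not pass. At an unadjusted p under 0.05 the counts were 7 and 0, and voom called 6 and 0. Their median log2 difference was -0.60, and their summed level went from 159 ± 8.11 to 109 ± 17.0 TPM (SD, n = 2 per group). The gene cenpa, for the histone H3 variant that marks centromeres, fell from 27.2 and 26.8 TPM to 14.2 and 18.9 TPM, by 0.69 on the log2 scale (SE 0.17, limma adjusted p = 0.0303). The mutant values stood apart from each other but below both siblings. Its call was lost under quantile normalization and with no trend.

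The kinesin gene cenpe, whose product carries chromosomes to the spindle equator, fell from 7.13 and 5.93 TPM to 2.88 and 3.15 TPM, by 0.90 on the log2 scale (SE 0.19, limma adjusted p = 0.0209). The large coiled-coil gene cenpf, a marker of G2 and mitosis, fell from 12.6 and 10.8 TPM to 6.09 and 7.58 TPM, by 0.70 (SE 0.18, limma adjusted p = 0.0365), and did not pass under median-of-ratios scaling or quantile normalization.

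The inner kinetochore genes, which in vertebrates form a network on CENP-A chromatin, differed in size of change. The gene cenpl fell from 11.3 and 9.60 TPM to 3.44 and 4.26 TPM, by 1.24 on the log2 scale (SE 0.19, limma adjusted p = 0.00988). Its direct partner in vertebrates, cenpn, read 11.6 and 9.27 TPM in siblings and 11.7 and 12.7 TPM in mutants (log2 difference 0.21, 95% interval -0.21 to 0.63, limma adjusted p = 0.391). The ratio of cenpn to cenpl was 1.02 and 0.966 in siblings and 3.39 and 2.97 in mutants, with no overlap between the groups. It mostly restates the fall of cenpl.

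The cenpk transcript fell from 17.8 and 20.3 TPM to 10.2 and 12.1 TPM, by 0.72 on the log2 scale (limma adjusted p = 0.0236), a call lost under quantile normalization. Its complex partners did not pass. The cenpi transcript read 10.9 and 7.87 against 3.12 and 5.83 TPM (log2 difference -0.95, SE 0.29, limma adjusted p = 0.0563). With voom and with a filter of 5 TPM, cenpi passed. For cenph the values were 8.01 and 6.56 against 5.17 and 7 TPM. The groups of cenpi did not overlap but each spread widely, and those of cenph overlapped. The histone-fold gene cenpw fell from 35.1 and 35.3 TPM to 22.9 and 26.3 TPM, by 0.50 on the log2 scale (limma adjusted p = 0.0355), and did not pass under median-of-ratios scaling, under quantile normalization, with no trend or with voom.

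Genes of the peripheral subcomplex had overlapping groups. The cenpp transcript read 14.4 and 14.4 TPM in siblings and 11.4 and 14.8 TPM in mutants. The cenpo transcript read 6.5 and 3.46 against 3.45 and 5.45 TPM, and cenpq 1.90 and 2.32 against 1.86 and 2.57 TPM. The 95% interval of the log2 difference ran from -0.56 to 0.28 for cenpp, from -0.89 to 0.67 for cenpo and from -0.52 to 0.60 for cenpq. Under the filter, cenpv was listed between 0.46 and 1.08 TPM with overlapping groups, and cenpj at 0 in all libraries.

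Most of the other kinesins, largely cargo motors, were listed below the 1 TPM filter. Of 31 rows, 7 reached the filter, 22 lay below it with some reads, and 2 (kif3a and kif3cb) were listed at 0 in all libraries. Of the 7 tested, 1 fell (14.3%, beside 18.6% of all genes tested), 0 rose and 6 did not pass. At an unadjusted p under 0.05 the counts were 1 and 1, and voom called 1 and 0. Their median log2 difference was 0.10, turning to -0.076 under quantile normalization. The summed level was 61.6 and 55.5 TPM in siblings and 49.6 and 48.6 TPM in mutants, most of it kif5ba.

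The conventional kinesin heavy chain gene kif5ba, for a motor that hauls organelles towards microtubule plus ends, read 43.5 and 42.0 TPM in siblings and 28.8 and 29.8 TPM in mutants. The groups were tight and apart, and the log2 difference was -0.53 (SE 0.11, limma adjusted p = 0.0220), with the call lost under quantile normalization and with no trend. Its paralog kif5bb read 3.41 and 1.98 TPM in siblings and 4.81 and 4.42 TPM in mutants (log2 difference 0.63, 95% interval 0.02 to 1.24, limma adjusted p = 0.106). It passed without sibling replicate 1, at 0.91, and did not without sibling replicate 2, at 0.35. The ratio of kif5bb to kif5ba was 0.0785 and 0.0472 in siblings and 0.167 and 0.149 in mutants, and reads of close paralogs may be shared.

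The gene kif21b, for a motor that restrains microtubule growth, read 6.45 and 4.57 against 7.67 and 6.73 TPM, with no overlap (log2 difference 0.35, limma adjusted p = 0.255), and passed without sibling replicate 1, at 0.55, but not without sibling replicate 2, at 0.14. The vesicle motor genes kif13ba and kif1b stood between 0.899 and 1.95 TPM. Their 4 libraries lay near the filter, which kif1b reached only through its mutant mean (0.995 and 1.14 TPM). The genes kifc3 and kif3c lay between 0.90 and 1.65 TPM and did not pass. The kinesin-binding gene kif1bp, whose product in mammals binds and inhibits several kinesin motors, fell from 7.27 and 8.5 TPM to 3.81 and 3.73 TPM, by 0.89 on the log2 scale (SE 0.18, limma adjusted p = 0.0184).

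**Figure D3:**
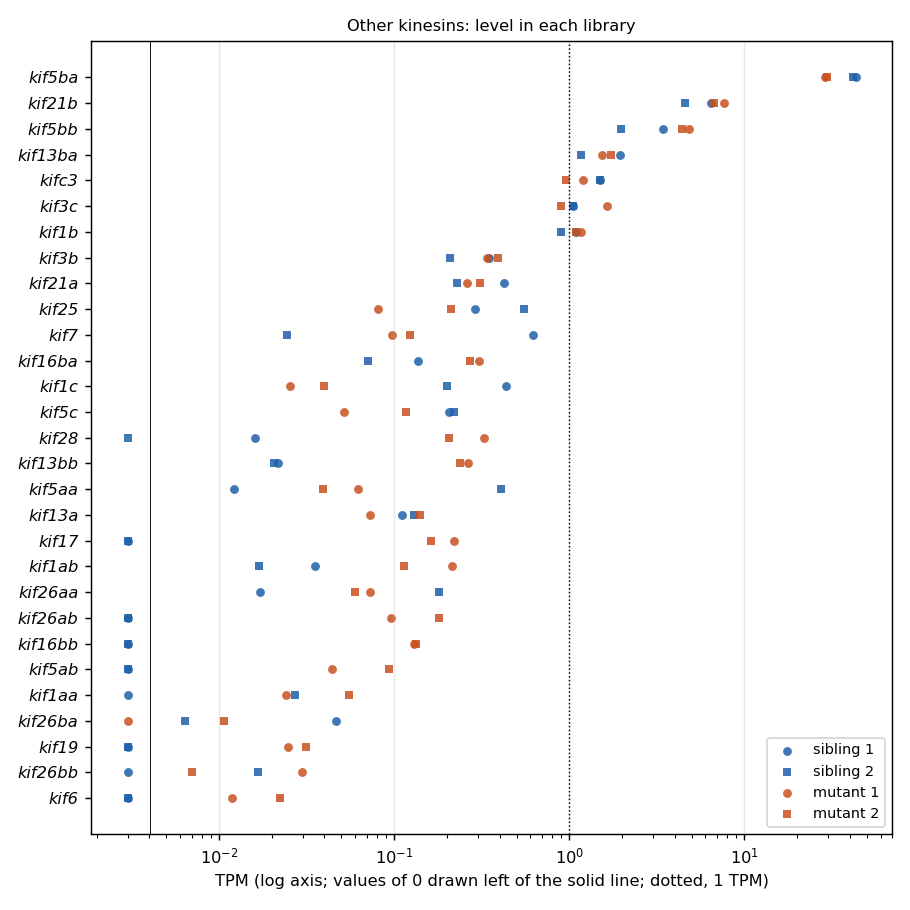
Level of the 29 other kinesins with a value above 0, in TPM per library on a log axis, with values of 0 drawn left of the solid line and the 1 TPM filter dotted. Only kif5ba stands above 10 TPM, and 6 rows at 0 in both siblings carry values in both mutants, or 27.3% of the 22 rows under the filter, against 19.4% of all such rows in the series.

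Of the 22 other kinesins with some reads below the filter, 10 were higher and 3 lower in mutants without overlap, against 42.7% higher and 9.62% lower among the 14032 rows of the series under the filter. The higher share of these kinesins was near that background. The 3 lower rows were kif1c, kif25 and kif5c. The kif1c row read 0.438 and 0.200 TPM in siblings and 0.0253 and 0.0399 TPM in mutants. In the same order, kif25 read 0.288 and 0.550 against 0.0814 and 0.212 TPM, and kif5c 0.207 and 0.221 against 0.0515 and 0.117 TPM. The ciliary kinesin gene kif17 was listed at 0 in both siblings and at 0.219 and 0.163 TPM in mutants, from 14 and 11 recovered reads. A count of 0 allows up to 3 reads, or 0.0554 and 0.0528 TPM in the sibling libraries, for counting error only. The endosomal motor gene kif16bb was likewise at 0 and then at 0.130 and 0.133 TPM, and kif13bb went from 0.0217 and 0.0208 to 0.263 and 0.238 TPM. These were the 3 members called higher in the fit with no filter, of 70 in that fit.

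Other ciliary kinesins did not all share this pattern. The row kif19 was at 0 in both siblings and rested on at least 3 and 4 recovered reads in mutants. The kif6 row likewise rested on at least 1 and 2. These counts are lower bounds, so whether kif6 lay under the 3 reads that a count of 0 allows is not known. The intraflagellar transport motor gene kif3b read 0.348 and 0.207 TPM in siblings and 0.338 and 0.390 TPM in mutants, with overlap. The ciliary Hedgehog regulator gene kif7 was highest in sibling replicate 1, at 0.624 and 0.0243 against 0.0972 and 0.123 TPM.

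Markers of multiciliated cells were read in the same libraries, where 9.91% of all genes tested rose. Of 6 tested markers 5 rose, of which 4 (foxj1a, rsph9, spag6 and enkur) reached the filter only through their mutant mean, and the sum of 10 was 14.2 and 10.5 TPM in siblings and 39.2 and 31.0 TPM in mutants. The master regulator gene foxj1a read 0 and 0.0573 TPM in siblings and 3.68 and 1.85 TPM in mutants. None of 8 neuron markers reached the filter, with sums of 0.884 and 2.20 TPM in siblings and 3.34 and 2.77 TPM in mutants. Without overlap, 5 were higher and 0 lower in mutants, beside 42.7% and 9.62% of all rows under the filter. The part of these markers in the low kinesin values was not tested.

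Partners of the members, from lists chosen beside them, were read from the same fit. Of 21 tested genes of the outer kinetochore and checkpoint, 10 fell (47.6%, beside 18.6% of all genes tested), 0 rose and 11 did not pass. The counts were 16 and 1 at an unadjusted p under 0.05, and 9 and 1 with voom. Among those that did not pass, the checkpoint kinase gene bub1 read 10.1 and 9.64 against 14.4 and 12.2 TPM. Their median log2 difference was -0.56. Besides aurkb, bub3 fell by 0.76, the anaphase activator gene cdc20 by 0.82 and the checkpoint gene bub1ba by 0.89 on the log2 scale. Within the complex of nuf2 and ndc80, spc24 fell from 55.8 and 48.9 TPM to 33.6 and 37.8 TPM, while spc25 read 61.3 and 43.4 against 37.8 and 54.4 TPM with overlap.

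Of 28 tested genes of the spindle pole, the augmin complex and microtubule growth, 5 fell, 0 rose and 23 did not pass (8 and 0 at an unadjusted p under 0.05, 5 and 0 with voom). Their median was -0.26, and the share that fell was 17.9% beside 18.6% of all genes. The mitotic kinase gene aurka, which tpx2 activates, fell by 1.07, the nuclear import gene kpna2, which binds and holds back tpx2 in vertebrates, by 1.33, the gamma-tubulin gene tubg1 by 0.63 and the plus-end gene mapre1b by 0.59 on the log2 scale. The tacc3 partner ckap5 read 10.9 and 10.03 against 7.27 and 9.31 TPM and did not pass. Of 12 tested cytokinesis partners, 6 fell and 1 rose (5 and 2 with voom). Those that fell included aurkb, also counted in the outer kinetochore list, and the septin gene sept7a, by 0.79 on the log2 scale. The 1 that rose was rhoab, at 73.3 and 97.4 TPM in siblings and 144 and 149 TPM in mutants. Its log2 difference was 0.79 (limma adjusted p = 0.0160).

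The tubulins, from which spindle and transport tracks are both made, moved both ways gene by gene, while their summed level was lower in mutants. The 16 rows summed to 6933 and 6248 TPM in siblings and 5240 and 4773 TPM in mutants. Over all genes tested, 18.6% fell and 9.91% rose. Of 13 tested, 4 fell and 3 rose, with tuba8l3, tuba8l and tubb2b lower by 1.53, 0.73 and 0.68 and tuba8l2 higher by 0.89 on the log2 scale. Another of those that rose, tubb2, was tested only through its mutant mean. Reads of tubulin paralogs may be shared. Of 23 tested S phase genes 12 fell and 0 rose (15 and 1 at an unadjusted p under 0.05), with a median of -0.38, including cdc45 by 0.96 and the sliding clamp gene pcna by 0.48. With voom only 6 fell and 1 rose.

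Of 10 tested light chain and adaptor genes, cargo partners of the transport kinesins, 1 fell (rhot1a, a mitochondrial adaptor, by 0.61) and 1 rose (jakmip1, by 1.18, from 0.479 and 0.0416 to 1.59 and 2.05 TPM), with a median of -0.03. The jakmip1 row was tested only through its mutant mean. Beside these counts, 18.6% of all genes tested fell and 9.91% rose. Of 22 tested genes of dynein and dynactin, the minus-end motor and its activator, 9 fell and 2 rose, with a median of -0.37. The light chain gene dynll1 fell from 666 and 620 TPM to 268 and 357 TPM, the dynactin gene dctn5 by 0.99, and the dynein regulators ndel1a and nde1, which also act at kinetochores, by 1.14 and 1.02 on the log2 scale. The light chain gene dynlt1 rose by 1.17, and the other that rose, dync1i1, was tested only through its mutant mean.

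**Figure D4:**
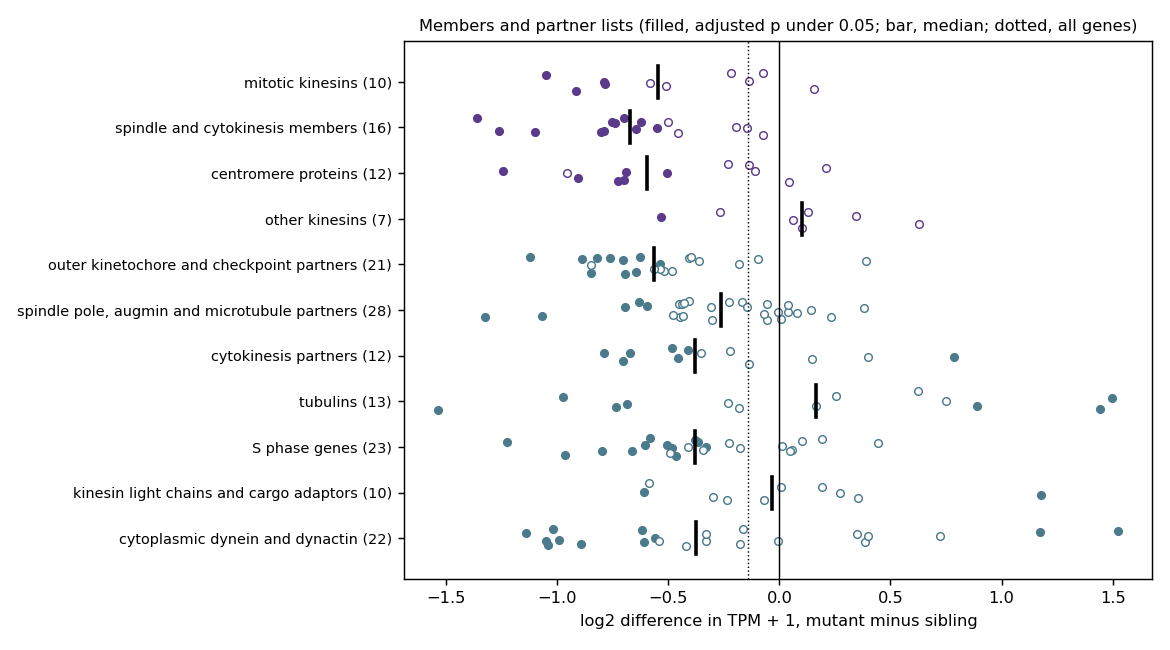
Log2 difference in TPM + 1 (mutant minus sibling) of each tested gene in the member classes (purple) and partner lists (teal), with the number tested in brackets, filled points for an adjusted p under 0.05, a bar for the list median and a dotted line for the median of all genes tested. The medians of the mitotic classes lie from -0.54 to -0.67, and those of the other kinesins and the tubulins lie above 0.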

How the data were processed

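RNA was measured in 2 sibling and 2 mutant libraries. The authors deposited TPM values by gene symbol, made with GRCz11 and with STAR and featureCounts among the tools, per the submitters' processing notes, with versions not given in the sources used here. Because TPM is a share of a library, more of 1 abundant transcript means less of the rest. The mt-rnr2 row read 82203 and 85332 TPM in siblings and 101463 and 119693 TPM in mutants (limma adjusted p = 0.0228). Its part in the members' differences was not tested.

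Rows with a mean of at least 1 TPM were fitted as log2(TPM + 1) by limma 3.58.1 (R 4.3.3, eBayes with trend, group as the only term), and an adjusted p under 0.05 was called. This scale understates changes of low genes. The fit was also run on simulated counts with the same spread setting for all genes, a check of the code and not of the calls made here. Whole reads were recovered for all 23927 rows above 0 in at least 2 libraries (tolerance 0.0001) as the smallest whole numbers giving the TPM ratios, so they are lower bounds, and amplified reads are not independent molecules. Replicate pairs differed beyond sampling noise (chi-square per degree of freedom 21.9 for siblings and 13.6 for mutants).

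Alternatives were pseudocounts of 0.1 and 0.5, no filter, a 5 TPM filter, 2 scalings, no trend, a replicate block, each library left out, and voom. Members, lists and alternatives were chosen with earlier results of these data known. Named were members that were called or had a mean of at least 5 TPM, and all mitotic kinesin, spindle and centromere members. The tested other kinesins, members at 0 in all libraries and up to 4 called genes with the smallest p per partner list were also named. The genes bub1, spc24, spc25, ckap5, dynlt1, the low kinesins and genes tested through the mean of 1 group were chosen after their values were seen.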

Additional observations from a re-analysis of the deposited data

How the results depend on the processing

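Of the 23 lower members, 10 (kif22, kif11, tacc3, ect2, tpx2, nuf2, nusap1, mad2l1, kif1bp and cenpl) stayed called in all 9 alternatives that kept every library. None of the 23 changed sign in any alternative. As their groups did not overlap, a sign could change only under the 2 scalings or with voom. Members called lower numbered 11 with no filter (3 higher) and 13 under quantile normalization. As 1 library was left out, lower members ranged from 0 to 27 and higher from 0 to 2, all genes lower from 3 to 3206 and higher from 0 to 2044. All genes called lower were 1124 with no filter and 1390 under quantile normalization, and genes called higher 778 with at least 5 TPM. The median of the spindle and cytokinesis genes was -0.58 under median-of-ratios scaling, -0.47 under quantile normalization and -0.79 to -0.57 as 1 library was left out. The other medians that moved were, under quantile normalization, -0.38 (centromere proteins), -0.43 (mitotic kinesins) and -0.076 (other kinesins), with at least 5 TPM -0.68 (mitotic kinesins) and -0.093 (other kinesins), and with voom 0.27 (other kinesins). The cause was not tested, apart from the fewer genes tested with at least 5 TPM. Of the other kinesins, only kif5ba and kif21b, which differed in opposite directions, reached that mean. Uncalled members that changed sign were incenp (0.023 under median-of-ratios scaling, 0.16 under quantile normalization, 0.0012 with voom) and, under quantile normalization, cenpq (-0.020), kif13ba (-0.053), kif3c (-0.076), cenpp (0.036) and kif1b (-0.11). As 1 library was left out, cenpq ranged from -0.12 to 0.20, cenpo from -0.49 to 0.26, kif4 from -0.38 to 0.11, kif13ba from -0.16 to 0.28, hmmr from -0.34 to 0.055, kif3c from -0.11 to 0.37, cenpp from -0.31 to 0.040 and incenp from -0.16 to 0.0068. With the replicate block, 20 members were lower (cenpf, cenpw and prc1b lost their call) and 0 higher and 1682 genes lower and 981 higher; the labels do not say that a number pairs libraries, and same-numbered libraries deviated together at r = -0.046 across genes. Depth limits the members below 1 TPM, some with fewer than 10 recovered reads.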
